A study of Mus musculus with 3 samples.

Results

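B16-F10 cells come from a pigmented melanoma of the mouse and colonise the lung, where cells injected into the tail vein first lodge in the capillaries. The barcodes of the B16F10_6h library that carried melanoma RNA are described here. They were chosen by the melanocyte genes themselves: a barcode (the tag of 1 droplet) was a member when it held at least 200 genes and at least 4 unique molecular identifiers (UMIs, 1 per captured RNA molecule) summed over Pmel, Mlana, Dct, Tyrp1, Tyr, Sox10, Gpnmb and Slc45a2. The rule found 91 members among 16804 barcodes with at least 200 genes in this library, and 48184 such barcodes in the 3 libraries together. Of the 91, 39 also held 5 or more UMIs of the endothelial genes Pecam1 and Cdh5 and were marked as mixed, and 52 were unmixed.

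The B16F10_6h library came from lungs of WT male C57BL/6 mice injected with 200000 CellTracker Green-labelled B16-F10 cells in 100 µl PBS and taken 6 h later. The Control library was taken 6 h after PBS and the B16F10_30h library 30 h after the same cell dose. The mice were young adults by the study's methods, and the animals of a library were pooled (2 mice per treatment by the labels, 3 by the study's methods). Endothelial cells (Pecam1+ Ptprc-) were sorted from every lung, and by the labels dye-labelled melanoma cells were added to the 6 h library only, whereas the study's methods give their sorting without a limit to 6 h. The number of members at 30 h cannot be told apart from the sort. In the summed RNA of a group of barcodes, fewer cells of a kind and less RNA per cell cannot be told apart. Each group is 1 library, so no difference has a replicate check and no p-value is given. Intervals are 95% exact Poisson or Clopper-Pearson intervals and cover counting error only.

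Melanocytes and pigmented melanomas make melanin in melanosomes, organelles related to lysosomes. Tyr, Tyrp1 and Dct encode the melanin-synthesis enzymes, Pmel the fibrils on which melanin is laid down, Mlana and Gpnmb melanosome membrane proteins, and Slc45a2 a transporter of the melanosome. Sox10 and Mitf are the transcription factors of the lineage, and MITF is known to bind the M-box, TCATGTG, with the core CATGTG, in pigment gene promoters. Gpnmb is also well known as a gene of macrophages.

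The promoters of the pigment enzymes are shown because the M-box lies in each of them. Sequences run 5′ to 3′ on the gene's strand from 250 bases before to 50 bases after the start (RefSeq, GRCm38.p6), with matches to the M-box or its core, on either strand, in capitals.
Dct, chr14:118052197-118052496, minus strand: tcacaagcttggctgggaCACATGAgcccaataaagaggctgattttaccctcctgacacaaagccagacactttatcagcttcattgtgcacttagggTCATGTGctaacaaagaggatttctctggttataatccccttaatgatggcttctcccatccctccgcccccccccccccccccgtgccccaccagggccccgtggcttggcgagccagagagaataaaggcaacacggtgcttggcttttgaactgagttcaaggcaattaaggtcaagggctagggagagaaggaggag
Tyrp1, chr4:80833963-80834262, plus strand: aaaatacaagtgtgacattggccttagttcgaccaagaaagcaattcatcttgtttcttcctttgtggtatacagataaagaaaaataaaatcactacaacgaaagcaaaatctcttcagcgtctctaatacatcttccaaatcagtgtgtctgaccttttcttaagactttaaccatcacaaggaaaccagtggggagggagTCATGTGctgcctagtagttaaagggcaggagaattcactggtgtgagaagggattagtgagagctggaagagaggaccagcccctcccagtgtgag
Tyr, chr7:87493463-87493762, minus strand: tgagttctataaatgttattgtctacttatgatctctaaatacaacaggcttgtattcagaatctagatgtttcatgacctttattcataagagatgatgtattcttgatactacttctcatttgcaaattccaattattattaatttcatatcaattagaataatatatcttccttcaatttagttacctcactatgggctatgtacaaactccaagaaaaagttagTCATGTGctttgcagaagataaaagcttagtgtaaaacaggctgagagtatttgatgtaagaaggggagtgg
The core began 21 bases before the start in Tyr, 46 in Tyrp1, and 150 and 232 in Dct. Promoters were found for 4 of the 8 rule genes, and 3 of these 4 held an M-box, beside 3.77% of 32851 mouse promoters of this length. Gpnmb, the fourth, held neither the M-box nor its core. Among the 25 genes described below with the largest excess over endothelium, 18 had a promoter, none held an M-box, and 2 (Nav2 and Sema3e) held the core, which 14.2% of all promoters hold.

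The rule also found barcodes in both other libraries, and the Control mice had received no melanoma cells. There were 25 members among 17071 barcodes in the Control library (0.146%, 0.0948 to 0.216%) and 43 of 14309 in the B16F10_30h library (0.301%, 0.218 to 0.405%), beside 0.542% (0.436 to 0.664%) at 6 h. Gpnmb was the only rule gene in 24 of the 25 Control members and in 41 of the 43 at 30 h, but in 13 of the 91 at 6 h. Leaving Gpnmb out of the rule left 1 barcode in Control, 1 at 30 h and 67 at 6 h. At least 4 different rule genes were seen in 46 members at 6 h (32 unmixed, 14 mixed) and in 0 members of either other library. None of the 91 barcode sequences was a barcode of 200 genes in another library, although the 6 h library shared 104 such sequences with Control and 63 with B16F10_30h.

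The threshold itself lies among low values. At 6 h, 20 barcodes held exactly 4 rule UMIs and 48 held 3, with median depths of 9808 and 11414 UMIs. Of those with 4, 13 were mixed, and of those with 3, 36 held 5 or more Pecam1 and Cdh5 UMIs.

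Of the 52 unmixed barcodes, 6 carried the RNA of other cells. In 5 of them there were 134 to 283 UMIs of the leukocyte list and 537 to 1074 UMIs of the macrophage and monocyte list, and Gpnmb (4 to 30 UMIs) was the only rule gene. The sixth held 580 UMIs of the fibroblast list beside 8 rule UMIs. In the other 46 the leukocyte list and the fibroblast list each stayed at 3 UMIs or fewer. The 6 barcodes were deep and supplied 42.0% of the 428129 UMIs of the 52, so they set much of the sum. They were set apart where either list reached 10 UMIs, a limit chosen after the values were seen, and the 46 left are called pigmented barcodes below (248288 UMIs).

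**Figure D1:**
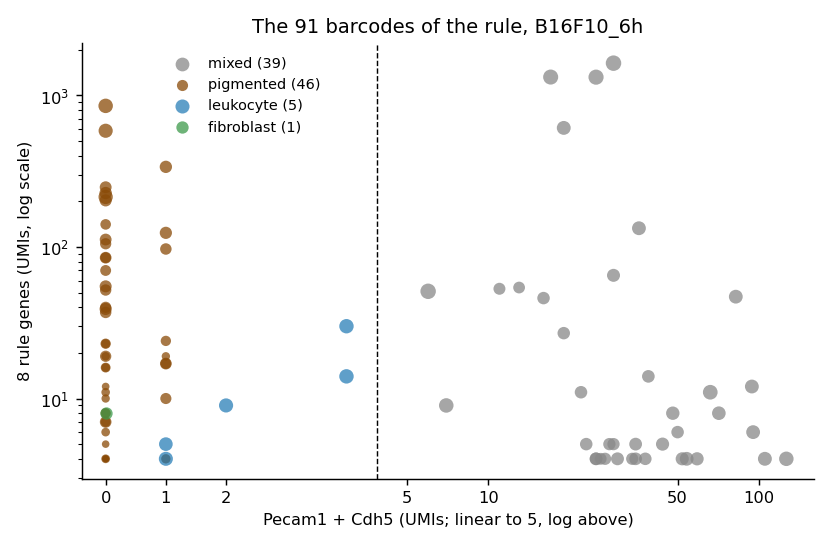
The 91 members at 6 h, with the UMIs of the 8 rule genes (log scale) against those of Pecam1 and Cdh5. Larger points hold more UMIs and the dashed line marks the limit of 5; the 46 pigmented barcodes sit at 0 or 1 endothelial UMI, whereas the 39 mixed ones reach 126.

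Each of the 46 pigmented barcodes held 2 or more rule genes and 32 held 4 or more. These values chose the members and are given as a description. Dct was the most abundant, with 1655 UMIs in 43 of 46 barcodes, or 6666 CPM (UMIs of the gene in every 1000000 UMIs; 6348 to 6995). Pmel followed at 3363 CPM in 38 barcodes, Mlana at 2082 CPM in 34, Tyrp1 at 1925 CPM in 40 and Gpnmb at 1555 CPM in 35. The transporter Slc45a2 (362 CPM), Tyr (109 CPM) and Sox10 (96.7 CPM) were low and were seen in 18, 5 and 9 barcodes. CPM of this 3′ assay count molecules and are not divided by gene length. Among the 33 pigmented barcodes with at least 1000 UMIs, Dct ran from 0 through a median of 5676 to 19887 CPM and was seen in 32.

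Markers of other lung cells were scarce in the sum of these 46 barcodes, in part because limits on such markers had chosen them. Single barcodes held 0 to 18 UMIs of the endothelial markers outside the rule's pair. The one with 18, of 3561 UMIs, stood at 5055 CPM. Of 13 endothelial markers outside the rule's own pair 3 were at 0, and together they summed to 576 CPM, against 17294 CPM in 8715 endothelial barcodes of the same library (1000 to 5000 genes, under 20% mitochondrial UMIs, 5 or more Pecam1 and Cdh5 UMIs and no rule-gene UMI). The leukocyte list held 7 UMIs and the fibroblast list 6, both low by the limit that set barcodes apart. The neutrophil list held 3 UMIs and the lymphocyte list 1. Red cell genes reached 1091 CPM and alveolar and airway epithelial genes 262 CPM, beside 17667 and 7188 CPM in empty droplets (barcodes of 1 to 100 UMIs, which hold free RNA). The 11 genes listed as free RNA of other lung cells stood at 5.39% of its empty-droplet level, an upper value for the share of free RNA in the sum if those genes came from free RNA only.

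Compared with endothelium, the pigmented barcodes had a small set of much higher genes and a larger set of lower ones. A gene was counted as higher or lower when log2 of the ratio of (CPM + 10) reached 2, a 4-fold difference, provided that the average of both CPM values reached 20. The 8 rule genes, Pecam1 and Cdh5 were left out. Of 6660 genes, 316 (4.74%) were at least 4-fold higher and 1173 (17.6%) at least 4-fold lower, with a median log2 ratio of −0.47. With genes of 0 UMIs in the pigmented barcodes placed at 3 UMIs, 1014 were lower. A gene under 20 CPM in one sum could pass the filter only through the other sum. Of the 6106 genes at 20 CPM or more in endothelium 107 (1.75%) were higher, and of the 4999 at 20 CPM or more in the pigmented barcodes 296 (5.92%) were lower. The list counts below are to be read beside these shares. In the 52 unmixed barcodes the counts were 503 of 7028 higher (7.16%) and 778 lower (11.1%).

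Which genes led the comparison depended on the 6 barcodes with other RNA. Of the 25 genes with the largest excess in the 52, 18 had 3 or fewer UMIs in the 46, among them Ccl6, Chil3, Ctss, Ear2, Cybb and Ptprc, which are known leukocyte genes. Lyz2 stood at 4162 CPM in the 52 and at 36.2 CPM in the 46, with 10321 CPM in the 5 leukocyte barcodes. Only 5 genes stood in both lists of 25, and these were Ptgds, Lgals1, Lgals3, Syt4 and Cd63. All 25 leading genes of the 46 were at least 4-fold higher in the 52 also. This was fixed beforehand, since the 46 are part of the 52 and adding the 6 can lower a log2 ratio by 0.786 at most. All 25 were at least 4-fold above empty droplets, as were 241 of the 316 genes counted as higher than endothelium. Over all genes that passed against empty droplets, 253 of 6428 (3.94%) were.

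Ptgds, which encodes a prostaglandin D2 synthase expressed in melanocytes, led the 46 pigmented barcodes at 3419 CPM (3193 to 3657) against 2.66 CPM in endothelium. It was seen in 36 of 46 barcodes, and over the 33 with at least 1000 UMIs it ranged from 0 through a median of 1311 to 18414 CPM. After thinning to 1000 UMIs it was seen in 21 of 33 pigmented (63.6%, 45.1 to 79.6%) and in 0.333% of endothelial barcodes, beside 78.3% and 2.04% unthinned. The galectin Lgals1 followed at 2956 CPM against 7.76 CPM and was seen in 37 barcodes. Of the 33 with at least 1000 UMIs, 32 held a UMI of it. All 32 lay above the 97.5th percentile of endothelial barcodes (121 CPM). Such counts are not matched for depth, since 1 UMI weighs more CPM in a shallow barcode. Next came Syt4, a synaptotagmin of vesicle release (733 against 0.174 CPM), Syngr1, a synaptic vesicle protein (540 against 0.509 CPM), and Chchd10, a mitochondrial protein (681 against 3.55 CPM). Apoe, an apolipoprotein also made by melanocytes, stood at 1877 against 27.0 CPM, and Cd63, a tetraspanin of melanosomes and endosomes, at 2070 against 33.9 CPM.

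The other leading genes had varied roles. Fabp5, a fatty acid carrier, stood at 745 against 13.5 CPM and Cryab, a small heat shock protein, at 1458 against 21.4 CPM. Mif, a cytokine, stood at 1978 CPM (1806 to 2160) against 55.8 CPM, and from 0 through 1775 to 4384 CPM in the 33, of which 29 lay above the endothelial 97.5th percentile of 334 CPM. The glycolytic enzymes Pgk1 (1571 against 54.7 CPM) and Tpi1 (1035 against 43.0 CPM), the serine-synthesis enzyme Phgdh (262 against 2.54 CPM) and the S phase genes Rrm2 (230 against 0.549 CPM) and Pclaf (262 against 0.696 CPM) were also in the list. Of the 25 genes 6 came from fewer than 10 barcodes: Chsy3 and Pclaf were seen in 9, Fmn1 in 6, Nav2 in 3, and Sema3e and Cntn3 in 1 each.

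**Figure D2:**
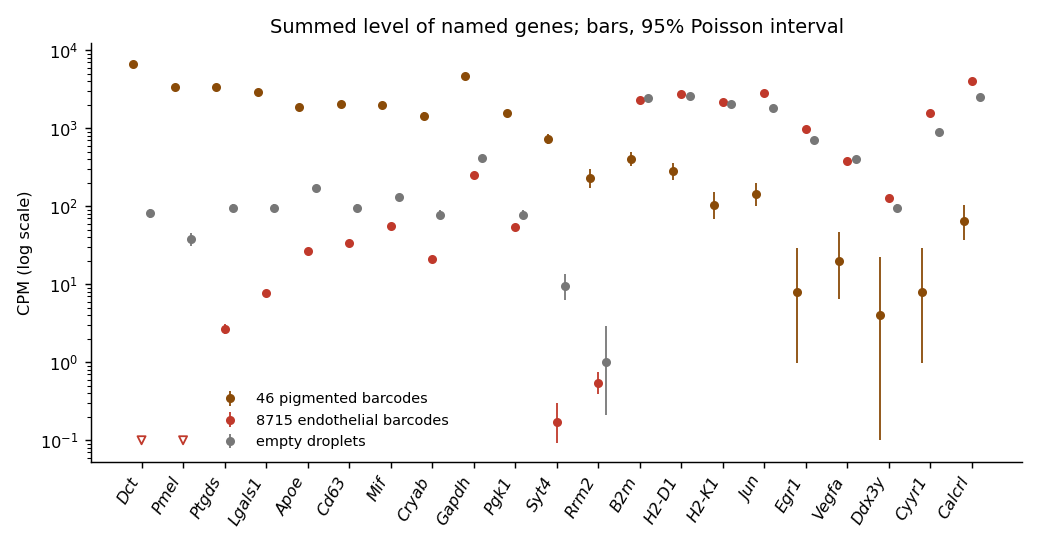
Summed CPM (log scale) of named genes in the 46 pigmented barcodes, the 8715 endothelial barcodes and empty droplets of the 6 h library, with 95% Poisson intervals. Open triangles mark a sum of 0 UMIs, which the rule fixes for Dct and Pmel in endothelium; Ptgds stands at 3419, 2.66 and 95.5 CPM in the 3 sums and Calcrl at 64.4, 4015 and 2490 CPM.

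Several of the lowest genes are known from endothelium. Cyyr1 stood at 8.06 CPM (2 UMIs) against 1566 CPM in endothelium, 194 times lower with a counting interval of 53.8 to 1605. Cd93, Clec14a, Calcrl and Adgrl4, all endothelial membrane proteins, and Bmp6 were among the 15 lowest. The transcription factor Zeb1 had 0 UMIs beside 511 CPM in endothelium and was at least 42.3-fold lower, and Kdr, the VEGF receptor, had 0 UMIs and was at least 37.2-fold lower. Cd93 had 3 UMIs beside 1386 CPM and was 115 times lower (39.2 to 556).

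Most of the called pigment and melanosome genes outside the rule were higher. Of the 44 listed, 32 passed the abundance filter, 21 were at least 4-fold higher and 4 lower, and the median log2 ratio was 3.00. Of the 15 at 20 CPM or more in endothelium 5 were higher; the other higher genes passed the filter through the pigmented sum. Besides Ptgds, Syngr1, Apoe and Cd63 these were led by Gpr137b, Slc24a5, a melanosome ion exchanger (552 against 36.4 CPM), Rab38, which carries enzymes to melanosomes (193 against 5.97 CPM), and Bace2, which cleaves PMEL (258 against 13.6 CPM). Lineage regulators were captured at lower levels: Mitf at 169 against 21.2 CPM, Pax3 at 117 against 0.0937 CPM and Tfap2a at 40.3 against 0.428 CPM. Trpm1, Cited1, Gpr143, Tspan10, Mlph and Myo5a were higher also. The other 12 of the 44 did not pass the filter, among them Oca2, a melanosome transporter, with 7 UMIs and Mc1r, the melanocortin receptor, with 5 UMIs.

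Kit, Ednrb and Slc24a4 were among the lower pigment genes. All 4 lower genes passed the filter through the endothelial sum, none of the 27 at 20 CPM or more in the pigmented barcodes being lower, and with undetected genes placed at 3 UMIs 3 were lower. Kit, the receptor of stem cell factor, had 2 UMIs (8.06 CPM) beside 499 CPM in endothelium and was 62.0 times lower (17.2 to 512). Ednrb, an endothelin receptor, had 0 UMIs beside 151 CPM and was at least 12.5-fold lower. Of genes tied to a dedifferentiated or neural crest state, 9 of 27 passed the filter, 1 was higher and 3 were lower (Zeb1, Jun and Aqp1); of the 8 at 20 CPM or more in the pigmented barcodes 2 were lower. Vim stood at 2114 against 970 CPM and Zeb2 at 278 against 292 CPM.

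The pigmented barcodes carried cell cycle RNA. Of 28 G1/S and S phase genes 19 passed, 12 of them higher and 0 lower (median log2 ratio 2.37), and of 30 G2/M genes 14 passed, 11 of them higher and 0 lower (2.66). All these higher genes stood under 20 CPM in endothelium and passed through the pigmented sum, while the 5 G1/S and 3 G2/M genes at 20 CPM or more there did not reach 4-fold. Dut (201 against 12.2 CPM), Tyms (101 against 13.0 CPM) and the survivin gene Birc5 (145 against 0.709 CPM) were among them, as were Mki67 at 48.3 and Top2a, a topoisomerase, at 101 CPM (0.348 and 2.02 CPM in endothelium). The signal was uneven. G1/S list UMIs reached 242 in the deepest barcode and 142 in the third deepest, and 21 of the 46 barcodes held no G2/M UMI. Without the deepest barcode the G1/S median was 1.58, and it was 1.11 when each barcode counted equally. After thinning to 1000 UMIs, 16 of 33 pigmented barcodes (48.5%, 30.8 to 66.5%) and 37.9% (36.9 to 38.9%) of endothelial barcodes held a G2/M UMI; the unthinned shares were 54.3% and 92.1%, with 2607 UMIs in the median pigmented and 8216 in the median endothelial barcode. The mean thinned G2/M count was 1.39 against 0.501 UMIs. Most of the endothelial G2/M sum of 503 CPM came from Tubb4b (306 CPM), Hmgb2 (105 CPM) and Smc4 (59.7 CPM). Mki67 or Top2a was seen after thinning in 1 of 33 pigmented barcodes (3.03%, 0.0767 to 15.8%) and in 0.264% (0.167 to 0.396%) of endothelial ones, beside 21.7% and 1.57% unthinned. Cdkn2a, the p16 and p19 locus, had 0 UMIs, but endothelium held only 2.89 CPM, so no difference could be read. Cdkn1a, which encodes the p21 inhibitor, stood at 242 against 637 CPM. The list of cell cycle control and tumour suppressor genes had 0 of 22 higher and 4 lower (18.2%), a share near the 17.6% of all genes.

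Glycolysis genes were higher as a group. Of 15 that passed, 10 were at least 4-fold higher, 0 were lower, and the median log2 ratio was 2.74. Of the 13 at 20 CPM or more in endothelium 8 were higher. Gapdh stood at 4656 against 253 CPM, and was seen in all 33 barcodes of 1000 UMIs or more, from 319 through 3490 to 12202 CPM, of which 28 lay above the 97.5th percentile of endothelial barcodes (819 CPM). After thinning to 1000 UMIs it was seen in 29 of 33 pigmented (87.9%, 71.8 to 96.6%) and in 21.5% of endothelial barcodes, beside 87.0% and 80.1% unthinned. Aldoa (1700 against 342 CPM) and Pkm (1470 against 147 CPM) were also higher, whereas Hk1, Pfkl and Pfkfb3 differed by less than 4-fold. The hypoxia list stood near all genes: 0 of 11 were higher and 1 was lower, with a median log2 ratio of −0.58 against −0.47 for all genes. Vegfa, the vascular growth factor, stood at 20.1 CPM (6.54 to 47.0) against 377 CPM.

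Other lists of metabolism and protein synthesis had higher genes in differing shares. Genes of the respiratory chain encoded in the nucleus had 6 of 54 higher and 0 lower with a median log2 ratio of 1.27, the chaperonin and ribosome assembly list 6 of 29 higher and 0 lower (1.14) and lipid and cholesterol synthesis 2 of 8 higher and 0 lower (1.66). Hspd1 and Hspe1, the mitochondrial chaperonin pair, stood at 1490 against 145 CPM and 1402 against 163 CPM. Of the 13 genes of the mitochondrial genome 10 were higher (2.53), and mitochondrial UMIs made up 14.2% of the sum against 2.45% in endothelium. Endothelial barcodes were limited to 1000 to 5000 genes and under 20% mitochondrial UMIs, whereas 18 of the 46 were at 20% or more. The median share of pigmented barcodes with 1000 to 5000 genes was 4.84%. Ribosomal protein genes (83 genes) made up 19.5% against 7.69%.

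Stress genes were split. The integrated stress and unfolded protein list had 9 of 17 higher and 1 lower (median 2.05), with the serine enzyme Phgdh, the asparagine synthetase Asns (234 against 35.7 CPM), Atf5 (238 against 24.8 CPM) and the chaperone Hspa5 (1410 against 333 CPM) higher; of the 10 at 20 CPM or more in endothelium 4 were. Ppp1r15a, which ends that response, was lower (40.3 against 209 CPM). Heat shock genes had 4 of 16 higher, led by Hsp90aa1 (3295 against 434 CPM), and 1 lower, the inducible Hspa1a. Antioxidant genes had 6 of 19 higher and 0 lower, with Ftl1 at 7830 against 1586 CPM and Prdx1 at 2558 against 612 CPM. Of p53 targets 0 of 14 were higher and 4 lower (28.6%, beside 17.6% of all genes), with a median log2 ratio of −0.89. Of the 7 at 20 CPM or more in the pigmented barcodes 0 were lower.

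Genes of antigen presentation were mostly low. MHC class I molecules show peptides to T cells. Of 21 genes of this list 15 were lower and 0 higher, with a median log2 ratio of −2.88. Of the 9 at 20 CPM or more in the pigmented barcodes 4 were lower. B2m stood at 407 CPM (331 to 494) against 2304 CPM, H2-D1 at 282 against 2792 CPM, and H2-K1 at 105 (68.4 to 153) against 2179 CPM. These 3 genes stood at 2423, 2580 and 2056 CPM in empty droplets. The part of free RNA in their low pigmented values was not tested. In the 33 barcodes of at least 1000 UMIs, B2m ran from 0 through 307 to 1310 CPM and H2-K1 from 0 through 0 to 1619 CPM, and all 33 lay below the endothelial medians of 2195 and 2096 CPM. The general folding chaperones Pdia3, Calr and Canx did not follow the list (661 against 253 CPM for Pdia3). Interferon-stimulated genes had 14 of 16 lower and 0 higher, with Ifitm3 at 246 against 2208 CPM. With undetected genes placed at 3 UMIs, 12 were lower and the median was −2.80 in place of −3.02, and of the 4 at 20 CPM or more in the pigmented barcodes 2 were lower. Cd274, which encodes PD-L1, had 0 UMIs and endothelium 28.4 CPM, so it was at least 2.35-fold lower.

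Among genes of secreted signals, Ppia and Mif had the highest levels. Of 65 secreted factors, 31 were detected and 24 passed the filter, 3 of them higher and 11 lower. Of the 21 at 20 CPM or more in endothelium 1 was higher, and of the 14 at 20 CPM or more in the pigmented barcodes 2 were lower. Ppia, cyclophilin A, stood at 4624 against 1359 CPM, above the 1978 CPM of Mif. Vegfb, another VEGF ligand, stood at 84.6 against 13.1 CPM. Vegfa was lower, as were Kitl, Pdgfb and Cxcl12. Il6, Osm and Lif, the gp130 ligands, had 0 UMIs each, which at this depth allows up to 12.1 CPM (3 UMIs), and all 3 were under 1 CPM in endothelium. In the leukocyte barcodes Osm stood at 40.7 CPM. Among receptors, Met, the receptor of hepatocyte growth factor, was higher (96.7 against 0.656 CPM), as was the hyaluronan receptor Cd44 (193 against 25.9 CPM), and 16 of 23 were lower. Of the 7 receptors at 20 CPM or more in the pigmented barcodes 3 were lower, and with undetected genes placed at 3 UMIs 14 of the 23 were.

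Pim kinases and the JAK-STAT pathway were at low levels. Of 12 genes that passed, 11 were lower and 0 higher, with a median log2 ratio of −2.94, and 8 were lower with undetected genes placed at 3 UMIs. Only 3 of the 12 stood at 20 CPM or more in the pigmented barcodes, and all 3 were lower. Pim1 had 0 UMIs (at least 9.85-fold lower than 119 CPM), and Bcl3, Jak2, Socs1, Socs2 and Jak3 had 0 UMIs also. Pim3 had 3 UMIs (12.1 CPM) against 158 CPM and was 13.0 times lower (4.46 to 63.2). Stat3 stood at 32.2 against 313 CPM and Socs3, the feedback inhibitor, at 24.2 against 860 CPM. In the 52 unmixed barcodes 7 of 12 were lower, and Pim1 stood at 81.8 CPM, with 204 CPM in the 5 leukocyte barcodes. Immediate early genes showed the same dependence: 13 of 14 were lower in the 46 (median −4.22; 10 of the 11 at 20 CPM or more there), whereas in the 52 there were 6 of 16 lower and 2 higher. Jun, a subunit of the AP-1 factor, stood at 145 CPM in the 46 against 2829 CPM. In the 33 deeper barcodes it ran from 0 through 0 to 1650 CPM, all below the endothelial median of 2277 CPM. Empty droplets held Jun at 1830, Stat3 at 223 and Pim3 at 146 CPM. The part of free RNA in the low values of these genes was not tested.

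Adhesion, coagulation and protease genes were mixed. Of adhesion and integrin genes 3 of 23 were higher, including the tetraspanin Cd81 (479 against 76.2 CPM), and 11 lower (3 of the 14 at 20 CPM or more in the pigmented barcodes), while the integrin Itgb1 stood at 552 against 713 CPM. Of coagulation genes 2 of 10 were higher and 3 lower. Of the 8 at 20 CPM or more in endothelium 0 were higher, and of the 7 at 20 CPM or more in the pigmented barcodes 0 were lower. F3, tissue factor, which starts coagulation, had 5 UMIs in 2 barcodes (20.1 CPM, 6.54 to 47.0) against 0.656 CPM and did not reach the abundance filter. Anxa1 stood at 137 against 6.10 CPM, and thrombomodulin, Thbd, had 3 UMIs and was 62.6 times lower (21.4 to 303). The lysosomal proteases Ctsd (1675 against 264 CPM) and Ctsz (636 against 54.0 CPM) were among 4 of 18 higher in the protease list (3 of the 17 at 20 CPM or more in endothelium). In that list 3 were lower (16.7%, near the 17.6% of all genes), and 0 of the 13 at 20 CPM or more in the pigmented barcodes. Of immune recognition genes 2 of 9 were higher and 5 lower, with 1 lower of the 4 at 20 CPM or more in the pigmented barcodes. The galectins Lgals1 and Lgals3 were higher (391 against 4.67 CPM for Lgals3, which like Lgals1 passed through the pigmented sum), whereas the galectin Lgals9 (16.1 against 186 CPM) and Cd47, the "do not eat me" signal (92.6 against 974 CPM), were lower. Hmga2, a chromatin gene of embryonic and tumour cells, had 13 UMIs in 4 barcodes (52.4 CPM) against 0.228 CPM.

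Genes of the Y chromosome were nearly absent from the pigmented barcodes. Ddx3y had 1 UMI and Eif2s3y 2 UMIs in 248288, against 128 and 52.5 CPM in endothelium, and Uty and Kdm5d had 0 UMIs against 79.7 and 23.9 CPM. Uty was at least 6.59-fold lower. Ddx3y was 31.7 times lower (5.69 to 1252) and Eif2s3y 6.52 times lower (1.80 to 53.8). Empty droplets held Ddx3y at 95.2 CPM, and whether its 1 UMI came from free RNA was not tested. Xist had 0 UMIs in the 46 and 0.0402 CPM in endothelium. The 5 leukocyte barcodes, by contrast, held 4 to 23 Y gene UMIs each, and Ddx3y stood at 163 CPM in their sum. In the 52, 0 of the 3 genes of this list that passed were lower.

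**Figure D3:**
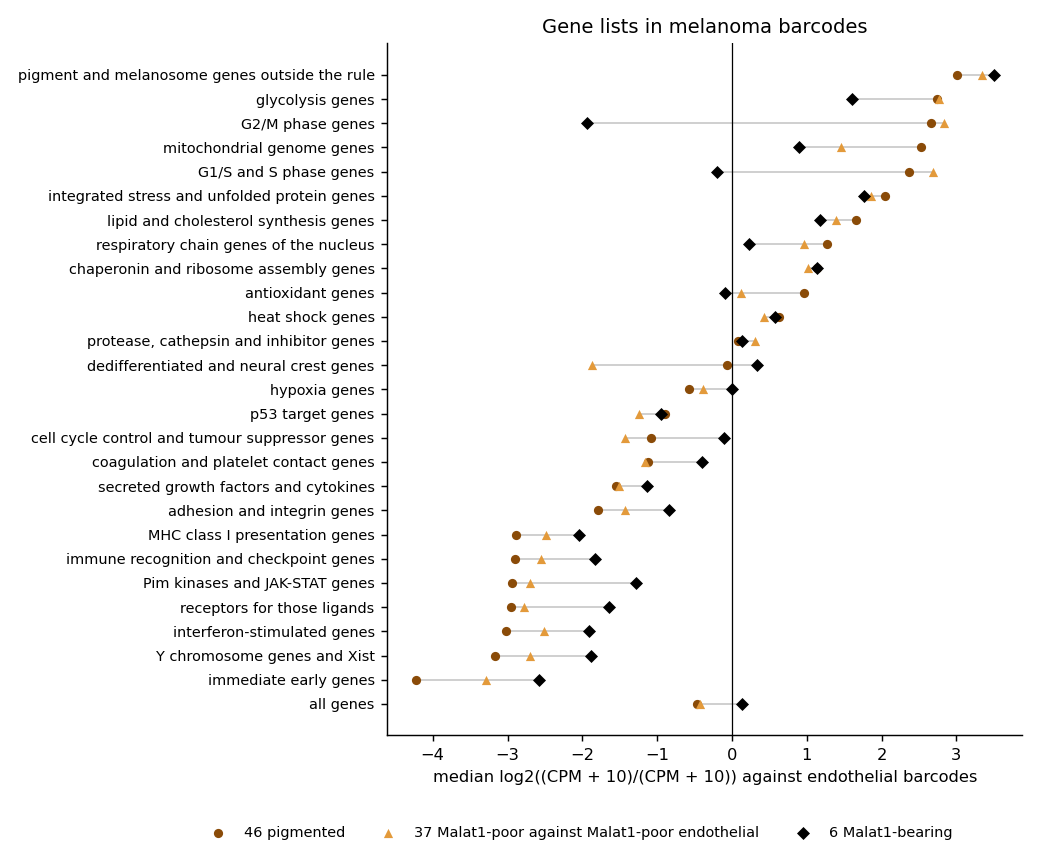
Median log2 ratio to endothelium of each gene list, over the genes that passed the filter, in 3 comparisons. Brown circles are the 46 pigmented barcodes, orange triangles the 37 of them with Malat1 under 0.1% of UMIs against endothelial barcodes of the same kind, and black diamonds the 6 Malat1-bearing barcodes; pigment genes sit between 3.00 and 3.50 in the 3 comparisons and immediate early genes between −4.22 and −2.58.

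The pigmented barcodes differed widely in depth and quality. Depth ran from 288 through a median of 2607 to 44488 UMIs and genes from 241 through 806 to 6894; 28 barcodes held under 1000 genes, 16 held 1000 to 5000 and 2 held more. The 3 deepest supplied 46.6% of all UMIs. Mitochondrial UMIs ranged from 0% through 14.9% to 64.3% of a barcode, with 18 barcodes at 20% or more (39.1%, 25.1 to 54.6%) and 6 under 1%. The endothelial barcodes give no measure of this, since 5 Pecam1 and Cdh5 UMIs are seldom reached in shallow barcodes. Barcodes under 1000 genes had a median mitochondrial share of 23.1% and those of 1000 to 5000 genes one of 4.84%. Rule genes were 11841 CPM in the median barcode, from 1400 to 55643 CPM.

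Malat1, a long RNA kept in the nucleus, was low in most pigmented barcodes. It took up 2.64% of the UMIs of the median endothelial barcode, but under 0.1% in 37 of the 46 pigmented barcodes (80.4%, 66.1 to 90.6%), against 4.08% (3.68 to 4.52%) of endothelial barcodes, and 19 of the 46 held none. Even the deepest pigmented barcode held 1 Malat1 UMI among 44488, and the third deepest 1 among 33534. After thinning to 1000 UMIs a Malat1 UMI was seen in 10 of 33 pigmented (30.3%, 15.6 to 48.7%) and in 97.0% of endothelial barcodes. One pigmented barcode, the second deepest with 37659 UMIs, was the only one at 1% or more: Malat1 made up 6.00% of it, and it held 2258 of the 2353 Malat1 UMIs of the 46.

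Genes of long span were lower in these barcodes also. The 2804 genes that span at least 100 kb (GENCODE M21) made up 5.20% of the pigmented sum and 17.1% of the endothelial sum, and 17.8% of the second deepest pigmented barcode. In the 37 Malat1-poor barcodes the median log2 ratio to endothelium was 0.34 for genes under 10 kb, −0.19 for 10 to 30 kb, −1.13 for 30 to 100 kb and −2.34 for 100 kb or more. The 356 Malat1-poor endothelial barcodes showed a smaller slope, from 0.24 to −0.98. Neat1 and Kcnq1ot1, other nuclear RNAs, stood at 10.1 and 0 CPM in the Malat1-poor pigmented barcodes and at 17.7 and 0.804 CPM in the Malat1-poor endothelial ones, against 165 and 59.1 CPM in all endothelial barcodes. The part of nuclear RNA in the lower genes above was not tested, beyond the comparison of barcodes alike in Malat1 that follows.

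**Figure D4:**
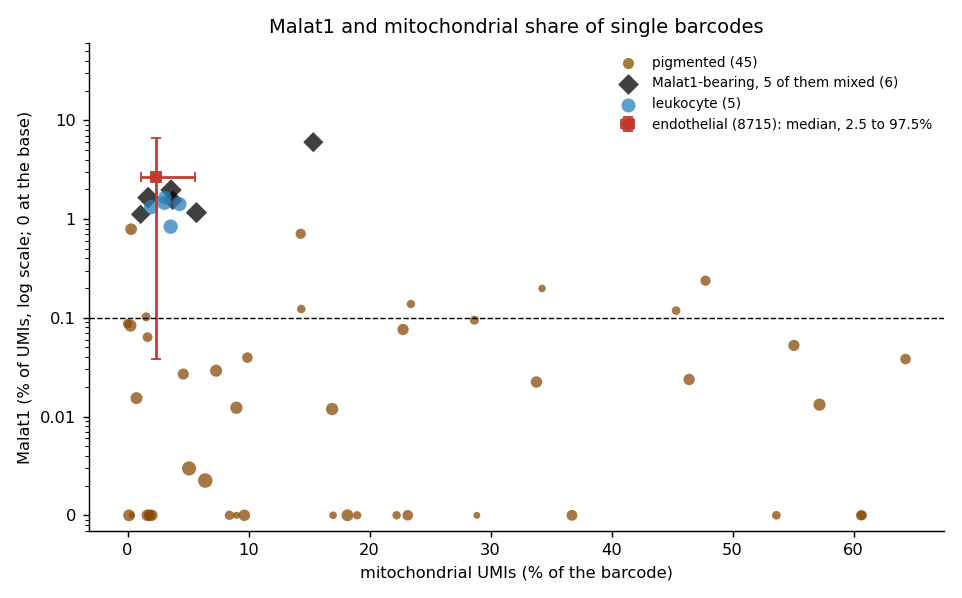
Malat1 (percent of UMIs, log scale, 0 at the base) against mitochondrial UMIs (percent) for single barcodes. Of the pigmented barcodes 37 lie under the dashed line at 0.1% at any mitochondrial share from 0 to 64.3%, the 6 Malat1-bearing barcodes lie above 1%, and the red square gives the median and the 2.5 to 97.5% range of endothelial barcodes.

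Set against endothelial barcodes that were also Malat1-poor, the list medians named here kept their sign. Several were smaller in size than against all endothelium, among them those of immediate early, antioxidant and mitochondrial genome genes. Over 5563 genes, 272 were at least 4-fold higher (4.89%) and 1005 lower (18.1%). The medians were 3.34 for pigment genes, 2.77 for glycolysis, 2.69 for G1/S and 2.83 for G2/M genes, and 1.86 for the integrated stress list. They were −2.48 for MHC class I, −2.52 for interferon-stimulated, −3.28 for immediate early and −2.69 for Pim and JAK-STAT genes. A gene low in either sum could pass the filter only through the other, which in part fixes the sign of such medians. No split by sum was made here. Against all endothelium, every higher G1/S and G2/M gene had passed through the pigmented sum. The kept sign of the cell cycle medians is thus not a separate check. Of the 12 Pim and JAK-STAT genes there, 3 reached 20 CPM in the pigmented barcodes, and all 3 were lower. Immediate early genes of the 37 went from −4.60 with 13 of 14 lower against all endothelium to −3.28 with 10 lower. For these genes the Malat1-poor endothelial barcodes were themselves below all endothelium (median −1.25, 2 of 14 lower). Antioxidant genes of the 37, at 1.06 against all endothelium with 6 of 19 higher, stood at 0.12 with 2 higher. Mitochondrial genome genes went from 2.38 with 10 of 13 higher to 1.46 with 0 higher, and adhesion genes from 12 of 22 lower to 7 of 21. Ribosomal protein genes made up 21.7% of the sum of the 37 and 15.1% of the Malat1-poor endothelial sum, against 7.69% in all endothelium. Of the Y chromosome and Xist list only 1 gene passed here (−2.70). The Malat1-poor endothelial barcodes were themselves lower for it than all endothelium (median −1.26, 1 of 3 lower). The Malat1-poor endothelial sum also held more free RNA: the free-RNA list stood at 15128 CPM in it (60.3% of the empty-droplet level), against 2653 CPM in all endothelium and 1304 CPM in the 37. The part of free RNA in these medians was not tested.

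**Figure D5:**
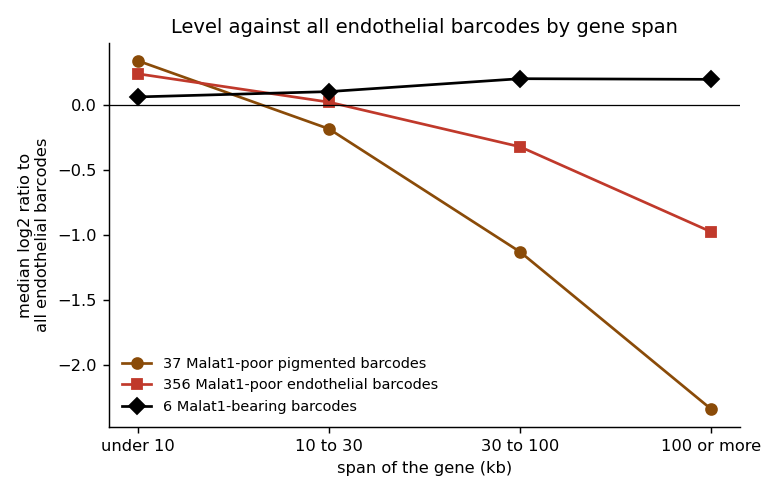
Median log2 ratio to all endothelial barcodes for genes grouped by their span (kb). The 37 Malat1-poor pigmented barcodes fall from 0.34 to −2.34 and the 356 Malat1-poor endothelial barcodes from 0.24 to −0.98, whereas the 6 Malat1-bearing barcodes stay between 0.06 and 0.20.

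Some barcodes held much pigment RNA together with Malat1, and 6 of them are described below as a set, not as a kind of cell. Of the 14 mixed barcodes with 4 or more rule genes, 10 held Malat1 at 1% or more, and 5 of these entered the set. There were 6 members without leukocyte or fibroblast RNA that held 100 or more rule UMIs and Malat1 at 1% or more, limits chosen after the values were seen: the second deepest pigmented barcode and 5 of the mixed ones. Their depths were 107657, 79548, 72444, 37659, 26982 and 25911 UMIs, with 1634, 1321, 1323, 214, 611 and 133 rule UMIs. Pecam1 and Cdh5 stood at 9.78%, 11.4%, 8.52%, 0%, 25.6% and 50.5% of their endothelial level. Endothelial barcodes hold Malat1 as well (2.64% in the median one). In the 2 with the pair at 25.6% and 50.5%, Malat1 stood at 1.55% and 1.12%. The part of endothelial RNA in the Malat1 of the 5 mixed ones was not tested. The 3 deepest are kept out of the 52 by 29, 25 and 17 UMIs of this pair. The 13 endothelial markers outside it held 162, 115 and 84 UMIs in them, beside a median of 162 UMIs over the mixed barcodes. In CPM they stood at 1505, 1446 and 1160, beside a median of 14430 CPM over the mixed barcodes, whose median depth was 13373 UMIs.

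Most of the called pigment genes were higher in these 6 barcodes than in endothelium, and their summed cell cycle RNA was below that of the Malat1-poor ones. Against endothelium, 428 of 7508 genes were at least 4-fold higher (5.7%) and 474 lower (6.31%), with a median log2 ratio of 0.14. Ptgds stood at 2893 CPM in their sum, and 25 of 37 pigment genes outside the rule were higher, with a median log2 ratio of 3.50. These barcodes were chosen by melanocyte genes. Pigment genes low in endothelium, such as Trpm1 (380 against 0.281 CPM), passed the filter through the 6, and no split by sum was made. Mitf stood at 725 CPM, against 188 CPM in the 37 Malat1-poor barcodes, and Rab38 at 640 against 183 CPM. Mitf was at 1208, 691 and 621 CPM in the 3 deepest, and at 371 and 347 CPM in the other 2 mixed ones. It was at 133 CPM in the one without endothelial RNA of the pair, beside 337 CPM in the deepest Malat1-poor barcode. Single barcodes of both sets thus overlapped. Rab38 was at 292 CPM in the one without that RNA and at 315 CPM in the deepest Malat1-poor barcode. The G1/S list summed to 306 CPM (250 to 369), beside 2461 CPM (2247 to 2690) in the 37 and 341 CPM in endothelium. G2/M genes summed to 220 CPM (174 to 275), beside 2030 and 503 CPM. The G1/S difference rested on few barcodes: of the 485 G1/S UMIs in the 37, 242 and 142 came from 2 of them. The median of the 37 was 176 CPM for G1/S, below 5 of the 6 Malat1-bearing barcodes (166 to 381 CPM), and 417 CPM for G2/M, above all 6 (176 to 386 CPM). Rrm2 had 1 UMI and Top2a 0 in the 6.

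Glycolysis genes also differed between the sums of both sets, while single barcodes overlapped. The glycolysis list summed to 5460 CPM in the 6 and to 16430 CPM in the 37, each above the 1451 CPM of endothelium. Among the 6 it was 3901, 4111, 4749 and 2549 CPM in the 4 deepest but 13342 and 14087 CPM in the other 2. These 2 overlapped the deepest Malat1-poor barcodes (12183 and 30805 CPM), and they held Pecam1 and Cdh5 at 25.6% and 50.5% of the endothelial level. The median of the 37 was 10309 CPM. A mixed barcode of 104610 UMIs, left out of the 6 because it held 51 rule UMIs, had Malat1 at 5.47% and 5 rule genes, and its glycolysis list stood at 16643 CPM. Mif followed, at 529, 327, 304 and 159 CPM in the 4 and 2150 and 1235 CPM in the other 2, beside 1573 and 4384 CPM.

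The low immune and signalling genes were low in both sets, by less in the sum of the Malat1-bearing barcodes, 5 of which were mixed. MHC class I genes had 12 of 21 lower and 0 higher in the 6 (median −2.04), with B2m at 514, H2-D1 at 454 and H2-K1 at 234 CPM. Interferon-stimulated genes had 6 of 17 lower (−1.92), immediate early genes 9 of 15 (−2.58) and Pim and JAK-STAT genes 3 of 13 (−1.29). Jun stood at 1239 CPM, against 66.0 CPM in the 37 and 2829 CPM in endothelium. Zeb1 was at 57.1 CPM and Ddx3y at 25.7 CPM, and the endothelial RNA in 5 of the 6 moves with these values; its part was not tested. In the 1 barcode of the 6 without Pecam1 or Cdh5, the MHC class I list stood at 1726 CPM, below the 2674 CPM of the 37. B2m and H2-K1 were both at 26.6 CPM in it, beside 477 and 101 CPM in the 37. Its immediate early list stood at 1832 CPM, above the 726 CPM of the 37, with Jun at 345 CPM. Zeb1, Pim3, Vegfa and Ddx3y had 0 UMIs in it.

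Of the 39 mixed barcodes, 25 held fewer than 4 rule genes, with a median of 4 rule UMIs, and 8 held Gpnmb alone. In the 25 the 13 endothelial markers outside the rule's pair ran from 1613 through a median of 16039 to 23318 CPM, beside 17294 CPM in the endothelial sum. Of the 39, 3 held 10 or more leukocyte UMIs. The one of 104610 UMIs named above held 6 Pecam1 and Cdh5 UMIs, 2.08% of the endothelial level. In all, 14 mixed barcodes held 4 or more rule genes.

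Rule-gene RNA was also found outside the members. The 8 rule genes summed to 218 CPM (202 to 236) in the empty droplets of the 6 h library, beside 4.79 CPM (2.79 to 7.66) in Control and 9.98 CPM (7.50 to 13.0) at 30 h. Dct led in both, with 37.5% of the rule UMIs in empty droplets and 41.3% in the pigmented barcodes. Pmel made up 17.3% and 20.8% and Tyrp1 11.8% and 11.9%, whereas Mlana took a larger share in empty droplets (20.4%, 132 UMIs) than in the pigmented barcodes (12.9%, 517 UMIs). In endothelial barcodes that were not members the rule genes stood at 15.2 CPM at 6 h (1285 UMIs), 3.93 CPM in Control (346 UMIs) and 5.19 CPM at 30 h (411 UMIs). Gpnmb supplied part of these sums. Without it, empty droplets stood at 196 CPM at 6 h, 1.41 CPM (5 UMIs) in Control and 2.03 CPM (11 UMIs) at 30 h. Endothelial barcodes then stood at 1.31 CPM in Control (115 UMIs) and 1.07 CPM at 30 h (85 UMIs), with 934 UMIs left at 6 h. The higher endothelial value at 30 h than in Control thus rested on Gpnmb. The platelet list summed to 79 UMIs in the 46 pigmented barcodes (318 CPM, 252 to 397), beside 697 CPM in endothelium and 1069 CPM in empty droplets. Of the 79, 55 came from 1 barcode of 4526 UMIs with 97 rule UMIs.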

How the data were processed

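Single-cell RNA was measured with the 10x Chromium 3′ assay in 3 libraries of lung, 1 per group. The deposited matrices hold UMI counts per gene and barcode, made by the authors with Cell Ranger 7.2.0 (file headers) on mm10 and not filtered for cells; whether intronic reads were counted is not given in the sources used here. Total counts per library ran from 124085451 to 140601123 UMIs over 32285 genes.

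UMIs were summed over the barcodes of each kind and given as CPM (numpy 2.4.6, scipy 1.17.1). With 1 library per group no test was made: ratios are log2 of (CPM + 10) over (CPM + 10), called at 4-fold where the mean was at least 20 CPM, and the step was tested on simulated data. Shares of barcodes with a UMI were thinned to 1000 UMIs. No doublet caller was run; the mixed mark stands in for it. Positions are from GENCODE M21. Members and lists were chosen with earlier results of these data known. Named genes are the rule genes, the 25 highest and 15 lowest, per list up to 4 most abundant and 3 lowest (in the 52 or the 46), any gene of the pigment, Y chromosome and Pim lists, and a few fixed by name (among them Mif, Vegfa, B2m, F3, Mki67, Hmga2 and Cdkn2a); Kcnq1ot1, Neat1 and the 6 Malat1-bearing barcodes were chosen after their values were seen. Alternatives covered the rule, the endothelial set, free RNA, prior count and filter.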

Additional observations from a re-analysis of the deposited data

Results flagged for a closer look

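Some of the mixed barcodes, which the sum leaves out because they hold 5 or more UMIs of Pecam1 and Cdh5, carried RNA of several melanocyte genes at 6 h. There were 14 of 39 with 4 or more different rule genes in the B16F10_6h library, beside 0 of 18 in Control and 0 of 26 in B16F10_30h. The endothelial share of the 14 by Pecam1 and Cdh5 ran from 2.08% through a median of 63.3% to 137%. The source of the endothelial RNA in them was not tested.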

How the results depend on the processing

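With 1 library per group the depth of 248288 UMIs limits low genes, 0 UMIs allow up to 12.1 CPM, and the mice cannot be told apart. No paired analysis was possible because each group is 1 library. The 52 unmixed barcodes gave 503 genes higher, 778 lower, and 10 lists at least 1 above and 7 below the median of all genes. With mixed barcodes kept these were 295, 25, 4 and 2. With at least 4 different rule genes 321 were higher and 1196 lower. With 1000 to 5000 genes and under 20% mitochondrial UMIs 1190 were lower, with the mean CPM per barcode 311 were higher, and without the leukocyte and fibroblast barcodes 316 were higher and 1173 lower. The 46 gave 11 lists above and 9 below. With mixed barcodes kept 185 genes were higher, 28 lower, and 5 lists above and 2 below, and the coagulation median turned from −1.12 to 0.051. In the 6 Malat1-bearing barcodes 474 genes were lower and 4 lists above, and G1/S (−0.20), G2/M (−1.93) and Top2a (−0.27) turned below 0; only 5 G1/S and 3 G2/M genes passed the filter there, against 19 and 14 in the 46. No other list median of 1 or more in size, and no other named gene past 4-fold, changed sign in the alternatives run. Smaller medians did: in the 46 those of antioxidant (0.97 to −0.09), hypoxia (−0.58 to 0.22) and dedifferentiated genes (−0.07 to 0.33), and in the 52 those of dedifferentiated (0.89 to −0.47), coagulation (0.15 to −1.12) and secreted genes (0.18 to −1.55). In the 46, 42 of 466 list medians and 137 of 540 gene values moved by more than their error, and in the 52, 60 of 363 and 172 of 420. Members in Control were 6 with at least 10 rule UMIs, 0 with 4 rule genes and 1 without Gpnmb; at 6 h they were 52 and 46 under the first 2 of these, and at 30 h 12, 0 and 1. Rule genes were at 142 CPM in empty droplets of 1 to 20 UMIs at 6 h. The causes were not tested. Alternatives on the 46 barcodes, Malat1 and the leukocyte and fibroblast barcodes were chosen after seeing the data.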
